A study of Mus musculus with 3 samples.

Results

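The 6 chemokine genes Cxcl1, Cxcl2, Cxcl3, Cxcl5, Ppbp and Ccl20 were followed across 3 single-cell libraries of mouse salivary gland organoids. They were taken by gene symbol and are 6 of the 32285 genes in the deposited matrices. They were chosen by their lower counts per library in the irradiated organoids than in the unirradiated ones, so those levels are described here and not tested. The study grew organoids from the submandibular gland of C57BL/6 mice aged 8 to 12 weeks and asked how they respond to photon and proton radiation.

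The photon library came from organoids that received 7 Gy of photons on day 5. The proton library came from organoids given 7 Gy of protons at the plateau, also on day 5. The control library came from unirradiated organoids, and all 3 were collected on day 11. Every group was grown in Matrigel from 4 animals in a medium with EGF, FGF2, N2, insulin, the glucocorticoid dexamethasone, the kinase inhibitor Y27632 and media conditioned with R-spondin1 and Wnt3a. Organoids were pooled before sequencing, and no label says which animal a cell came from. For each library 45000 cells that excluded propidium iodide, a dye that enters dead cells, were sorted and loaded for 3' single-cell sequencing. Each group is 1 library, so no difference between groups can be tested and no p-value is given. Intervals are exact 95% intervals that cover counting error only.

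Chemokines are small secreted proteins that direct the movement of white blood cells. Cxcl1, Cxcl2, Cxcl3, Cxcl5 and Ppbp share a Glu-Leu-Arg motif and act on the receptor Cxcr2, through which they draw neutrophils out of the blood. Ccl20 acts on Ccr6 and draws dendritic cells and Th17 lymphocytes to mucosal surfaces. In epithelium their transcription is driven by NF-kB after IL-1, TNF, IL-17 or microbial products, with the nuclear NF-kB cofactor IkB-zeta (Nfkbiz) acting on some of them, and many of their mRNAs are short-lived through AU-rich elements in the 3' UTR.

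Cxcl5, Ppbp, Cxcl3, Cxcl1 and Cxcl2 lie in this order on the plus strand of mouse chromosome 5 (GRCm38), where Cxcl5 runs from 90759360 to 90761624 and Cxcl2 from 90903871 to 90905938. The stretch from Cxcl5 to Cxcl2 spans 146.6 kb and holds 7 protein-coding genes, all chemokines, of which Pf4 and Cxcl15 are not members. Ccl20 lies apart on chromosome 1, from 83116766 to 83119167, also on the plus strand. All 6 genes are short, between 1546 bases (Ppbp) and 3498 bases (Cxcl3).

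The promoters are shown because the NF-kB letters in them set Cxcl1, Cxcl2, Cxcl3 and Ccl20 beside each other. RefSeq promoters (GRCm38.p6) matched 5 of the 6 members, Cxcl5 being the one without an entry. Each line gives the 120 bases before the RefSeq start, on the plus strand, and capitals mark bases covered by an NF-kB type match on either strand, that is GGGAA, any 3 bases, then CC.
Cxcl1 (chr5:90891125-90891244): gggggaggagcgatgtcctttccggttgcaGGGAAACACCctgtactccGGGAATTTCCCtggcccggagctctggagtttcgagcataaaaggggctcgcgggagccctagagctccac
Cxcl2 (chr5:90903779-90903898): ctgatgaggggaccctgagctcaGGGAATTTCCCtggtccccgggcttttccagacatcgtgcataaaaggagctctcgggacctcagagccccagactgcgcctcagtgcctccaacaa
Cxcl3 (chr5:90785981-90786100): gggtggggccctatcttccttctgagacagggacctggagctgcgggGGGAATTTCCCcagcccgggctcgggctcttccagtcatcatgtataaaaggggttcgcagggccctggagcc
Ccl20 (chr1:83116646-83116765): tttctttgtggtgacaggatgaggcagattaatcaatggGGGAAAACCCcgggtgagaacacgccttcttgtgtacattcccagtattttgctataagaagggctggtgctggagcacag
The form with TTT as the middle bases stood once each, on the plus strand, in Cxcl1, Cxcl2 and Cxcl3, starting 71, 97 and 73 bases before the RefSeq start. This form occurred in 29 of 32851 promoters of the same length (0.0883%), searched on both strands. The looser form with any middle bases, which includes it and can overlap itself on the opposite strand, also stood in Ccl20, 81 bases before the start, and occurred in 5.78% of promoters. Ppbp held no match to either in its 250 bases upstream and 50 downstream. A match is a description of the letters and says nothing of binding.

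The 3' UTRs are shown because the AU-rich pentamer ATTTA is repeated in most of them (GENCODE, longest annotated 3' UTR). The 30 bases with the most ATTTA in each of 3 members are given with the pentamers in capitals.
Cxcl1: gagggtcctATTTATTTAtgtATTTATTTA
Cxcl2: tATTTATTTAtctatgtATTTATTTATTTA
Ccl20: tgtaaagatATTTAatgttctgtttATTTA
Over the whole 3' UTR, ATTTA occurred 7 times in Cxcl1, 11 times in Cxcl2, 5 times in Cxcl3, 5 times in Cxcl5, once in Ppbp and 9 times in Ccl20, with overlapping matches counted. Per kb, ATTTA ranged from 1.52 in Ppbp to 11.8 in Cxcl1, beside a median of 1.24 over 20915 protein-coding genes. The longer TATTTAT occurred 6 times in Cxcl1, 7 in Cxcl2, 2 in Cxcl3, 1 each in Cxcl5 and Ccl20, and 0 in Ppbp. At least 1 copy was held by 27.6% of the 20915 genes, and 3 or more by 4.13%. No 60-base window in the last 500 bases of any of the 6 transcripts was identical to a transcript of another gene.

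After cells with fewer than 500 genes or more than 20% mitochondrial UMIs were left out, the libraries held 15041 photon, 13956 proton and 13219 control cells. A UMI (unique molecular identifier) marks 1 captured mRNA molecule. Kept UMIs numbered 46936995 in photon, 36692939 in proton and 39514768 in control, and the median cell held 2808 UMIs in photon, 2223 in proton and 2757 in control. Each pair of libraries shared between 55 and 61 of its barcodes, at most 0.428% of either library. The libraries stood apart in makeup: a cluster led by Anks1b and Ror1 held 6.53% of photon, 54.6% of proton and 0.477% of control cells, and one led by Aox3 and Orm3 held 17.4% of photon, 2.19% of proton and 57.1% of control cells. Gene length also moved with both irradiated libraries, in opposite directions. The shortest of 20 length classes holds 5 of the 6 members. Its median log2 ratio was -0.18 in proton over control, against 0.45 in the longest class. In photon over control the shortest class had 0.14 and the longest -0.37.

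All 6 members had lower CPM (UMIs per 1000000 of the library) in both irradiated libraries than in control, with every counting interval of the ratio below 1. Ccl20 and Cxcl3 stood at 0.102 and 0.105 times the control level in the proton library over all kept cells, and Cxcl5 at 0.787. The order of the members depends on the cells counted, since without the 1% of cells richest in members Cxcl2 (0.221) lay below Cxcl3 (0.288). Summed over the 6 genes the level was 329.9 CPM in photon, 144 CPM in proton and 448.2 CPM in control, ratios of 0.736 (0.720 to 0.752) for photon over control and 0.321 (0.312 to 0.331) for proton over control. Proton over photon gave 0.437 (0.423 to 0.451).

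By the size rule used here, a difference of at least 1.5-fold at a mean CPM of at least 5, 3 of the 6 members were lower in photon than in control (Cxcl3, Ppbp and Ccl20). Of all 10090 genes passing that CPM, 9.45% were lower by this rule. Ccl20 stayed at least 1.5-fold lower in photon in 9 of 9 alternative settings, Cxcl3 in 8 and Ppbp in 5. In proton against control 5 of 6 members were lower, all but Cxcl5, with 14.9% of 10211 genes lower. In proton against photon the same 5 of 6 were lower, with 14.0% of 10157 genes lower. No member was higher in any comparison, where 7.37% of all genes were in photon over control, 14.2% in proton over control and 22.2% in proton over photon. Since the members were listed for this pattern, nothing is read from these counts against those shares, and the comparisons with control share the control library. The median log2 ratio over the members was -0.67 in photon over control and -2.43 in proton over control, beside -0.12 and 0.03 over all genes passing the CPM filter.

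**Figure D1:**
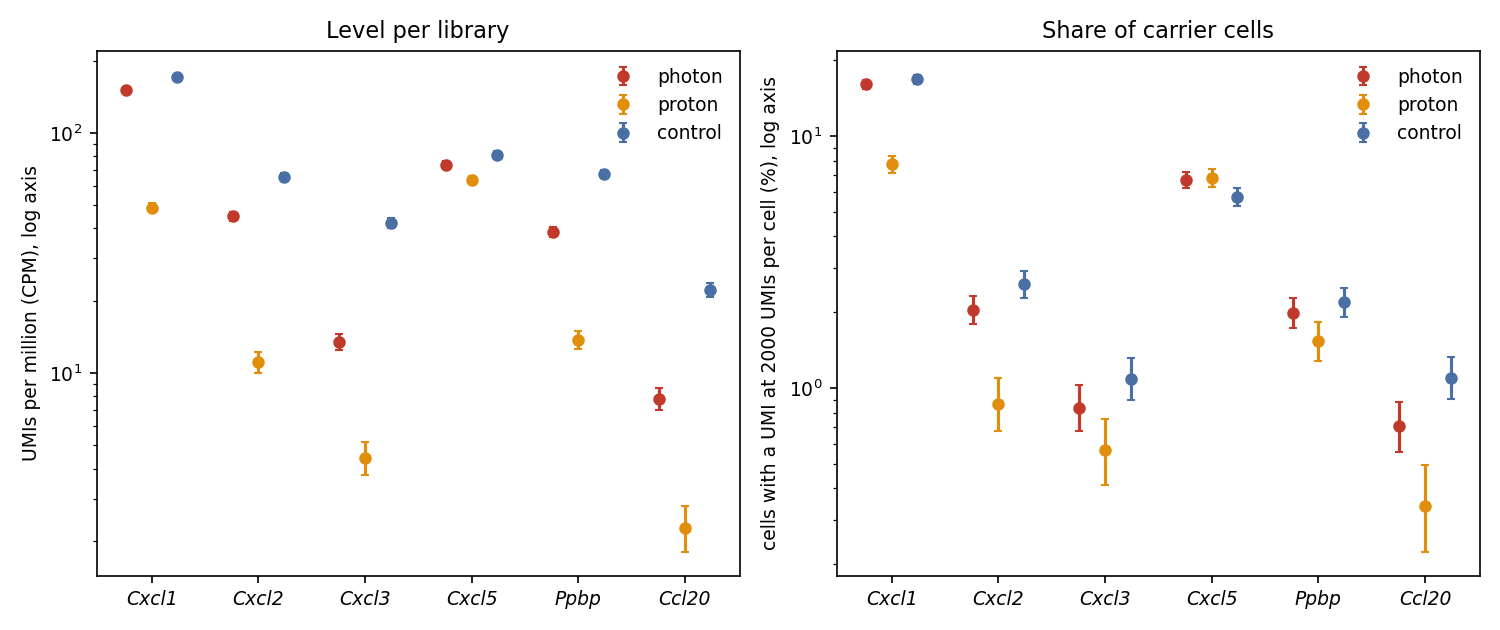
Level of each chemokine in CPM (left, log axis) and share of carrier cells (right, log axis) in the photon, proton and control libraries. Carriers held at least 1 UMI, among cells with at least 2000 UMIs that were each thinned to 2000. Points are single libraries and bars exact 95% counting intervals. Levels are lowest in proton for all 6 genes, while the Cxcl5 share is lowest in control.

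**Figure D2:**
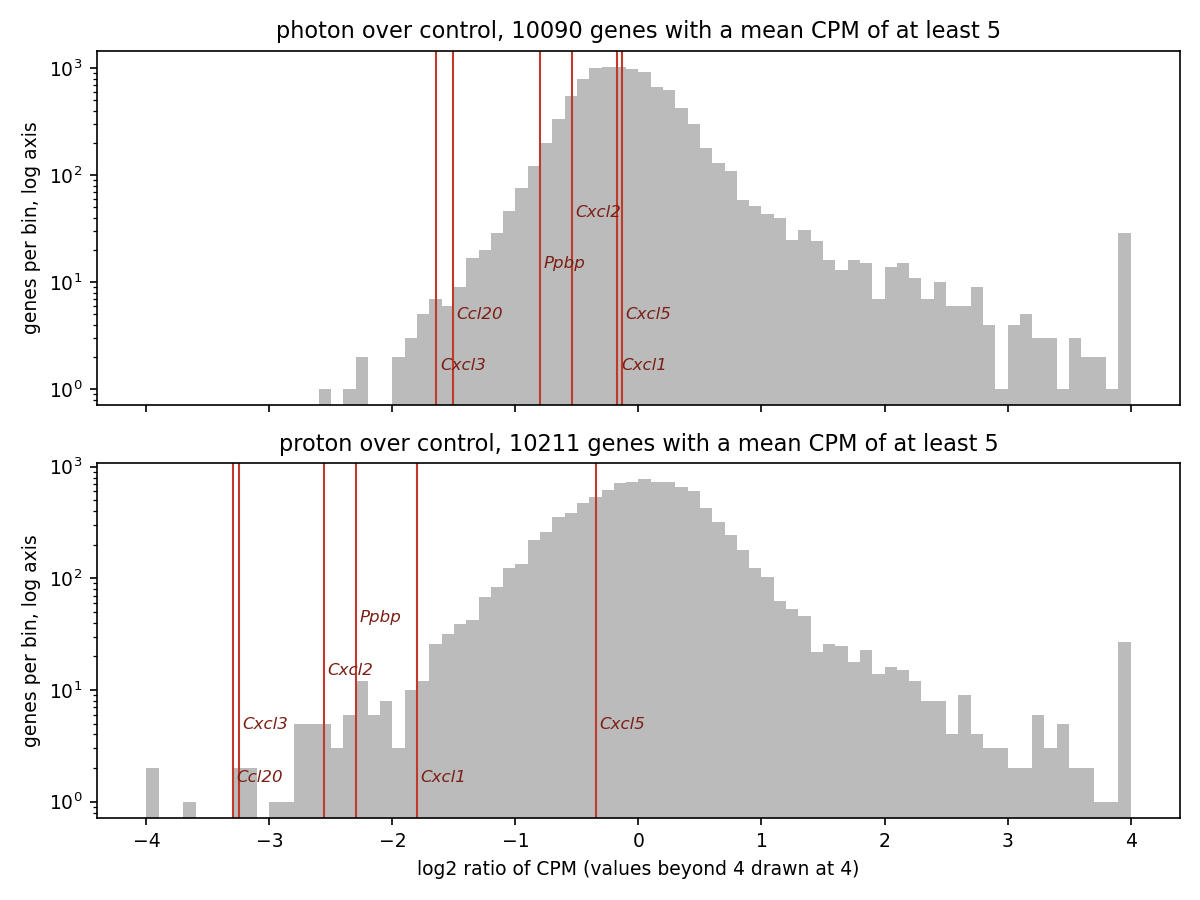
Distribution of log2 ratios over control for all genes with a mean CPM of at least 5, for photon (top) and proton (bottom), with the 6 chemokines as red lines, the number of genes per bin on a log axis and values beyond 4 drawn at 4. Ccl20 and Cxcl3 lie at -3.30 and -3.25 in proton, and Cxcl5 at -0.35.

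Cxcl1, the mouse counterpart of the human GRO chemokines and known as KC, had the most UMIs of the members in photon and control and the most carriers in all 3 libraries, while in proton Cxcl5 had more UMIs. Its level was 151.4 CPM in photon, 48.9 CPM in proton and 170.6 CPM in control. The ratio was 0.888 (0.858 to 0.918) in photon over control and 0.286 (0.272 to 0.302) in proton over control. Photon thus lay close to control while proton stood well below both. Shares of carriers were taken among cells with at least 2000 UMIs, each thinned to 2000. This left out 4150 photon, 6017 proton and 3599 control cells. Among the thinned cells, 16.1% in photon, 7.73% in proton and 16.8% in control carried a Cxcl1 UMI. Both the share of carriers and the UMIs per carrier were lower in proton than in control, at ratios of 0.461 (0.419 to 0.506) and 0.673. Most carriers held 1 UMI, 55.9% of them in photon, 75.6% in proton and 56.5% in control before thinning. Carriers were spread over the clusters, with shares from 11.0% to 23.5% in photon, 3.90% to 11.4% in proton and 8.03% to 26.7% in control among clusters with at least 100 thinned cells. No cell type that lacks the gene was available to set the level of free RNA, so the lowest cluster share is set beside each gene's share as a level that free RNA could reach. For Cxcl2 that was 0.320% in photon, 0.357% in proton and 0.730% in control, for Ppbp 0.160% in photon, 0.688% in proton and 0.843% in control, and for Cxcl5 4.31% in photon, 3.37% in proton and 3.65% in control. The Cxcl3 and Ccl20 shares in control were lowest in cluster 0, whose median was 2867 UMIs, at 0.296% and 0.459%.

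Cxcl2, also known as MIP-2 and made early by stimulated epithelium and macrophages, measured 44.9 CPM in photon, 11.1 CPM in proton and 65.2 CPM in control. Ratios to control were 0.688 (0.649 to 0.729) in photon and 0.170 (0.153 to 0.189) in proton. Equal cluster mixture, which leaves out the cluster led by Anks1b and Ror1, gave 0.256 in proton. Carriers made up 2.05% of photon, 0.869% of proton and 2.59% of control cells after thinning. A few cells carried much of it, and the 10 cells with the most Cxcl2 UMIs held 45.8% of the gene's UMIs in photon, 43.7% in proton and 37.3% in control. The highest single cell held 222 UMIs in photon, 28 in proton and 227 in control.

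Cxcl3, a close relative of Cxcl1 and Cxcl2, measured 13.4 CPM in photon, 4.42 CPM in proton and 42.0 CPM in control. Ratios to control were 0.320 (0.292 to 0.351) in photon and 0.105 (0.0890 to 0.124) in proton. Carriers made up 0.836% of photon, 0.567% of proton and 1.09% of control cells after thinning. The ratio of carriers to control was 0.766 (0.572 to 1.02) in photon and 0.519 (0.358 to 0.743) in proton. In the same thinned cells the ratio of levels was 0.468 in photon and 0.210 in proton. Cxcl3 had 2.42 UMIs per carrier in photon, 1.60 in proton and 3.95 in control. It was the most concentrated gene, with 57.2% of its UMIs in 10 photon cells, 44.4% in 10 proton cells and 65.1% in 10 control cells. Its control level therefore rests on few cells, and without the 1% of cells richest in the 6 genes the ratios were 0.457 in photon over control and 0.288 in proton over control. The proton ratio was also 0.236 without the 5% deepest cells, 0.210 thinned, 0.179 with equal cluster mixture and 0.559 without cluster 7, a cluster of squamous-like cells.

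Cxcl5, called LIX in mice and made chiefly by epithelium, was the member closest to control. Its level was 73.7 CPM in photon, 63.7 CPM in proton and 80.9 CPM in control, ratios of 0.911 (0.868 to 0.956) and 0.787 (0.746 to 0.830). The share of carriers went the other way, at 6.71% of photon, 6.80% of proton and 5.74% of control cells after thinning, so no order of the libraries is read from it. Thinned to equal depth the mean Cxcl5 level per cell was likewise higher than in control, by ratios of 1.11 in photon and 1.08 in proton. The Cxcl5 difference from control therefore has no settled direction in these libraries.

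Ppbp, pro-platelet basic protein, is best known from platelet granules, where its cleaved form CXCL7 is stored. Its level was 38.6 CPM in photon, 13.7 CPM in proton and 67.2 CPM in control, ratios of 0.574 (0.541 to 0.610) and 0.204 (0.185 to 0.224). The proton ratio was 0.420 without the 5% deepest cells, 0.465 without the 1% of cells richest in members, 0.371 thinned, 0.358 with equal cluster mixture and 0.658 without cluster 7. The photon ratio was 0.856 without the 5% deepest cells, 0.804 without the 1% richest in members, 0.726 thinned and 1.08 without cluster 7. In these settings Ppbp was not 1.5-fold lower in photon. Of the platelet markers, Gp1bb and Treml1 had 0 UMIs in all 3 libraries, Gp9 stayed at or under 0.0545 CPM and Itga2b between 2.34 and 3.24 CPM. Pf4, the neighbour of Ppbp and the other main platelet chemokine, was at 1.17 CPM in photon, 0.981 CPM in proton and 1.09 CPM in control. These are whole-library levels, and whether these markers lay in the same cells as Ppbp was not tested. Carriers were 1.99% of photon, 1.54% of proton and 2.19% of control cells after thinning. In photon the ratio to control was 0.799 for UMIs per carrier and 0.908 (0.748 to 1.10) for the share of carriers. That interval holds both values, so no order of the 2 is read.

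Ccl20 was the least abundant member, at 7.82 CPM in photon, 2.26 CPM in proton and 22.2 CPM in control. Ratios to control were 0.352 (0.311 to 0.398) in photon and 0.102 (0.0803 to 0.128) in proton. Without the 1% of cells richest in members the proton ratio was 0.212, with equal cluster mixture 0.172, and without cluster 7 it was 0.286 and the photon ratio 0.640. The proton value rests on 83 UMIs in 58 cells, against 878 UMIs in 169 control cells. Carriers made up 0.707% of photon, 0.340% of proton and 1.10% of control cells after thinning, and no proton cell held 10 or more UMIs, against 8 photon and 22 control cells.

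Cells with at least 10 UMIs of any of the 6 genes numbered 161 in photon, 41 in proton and 191 in control, or 10.7, 2.94 and 14.5 per 1000 cells. They held 42.5% of the 6 genes' UMIs in photon, 23.1% in proton and 56.8% in control. These cells were deep, with medians of 4424 UMIs in photon, 4585 in proton and 5587 in control, and doublets were not removed, so the part of doublets and depth in their number was not tested. After thinning to 2000 UMIs they remained fewest in proton, at 4.50 per 1000 photon cells, 2.02 per 1000 proton cells and 5.93 per 1000 control cells. Any member was seen in 22.7% of photon, 14.9% of proton and 23.1% of control cells after thinning, a ratio of 0.984 (0.929 to 1.04) in photon over control. That interval held 1, while the summed level in photon over control was 0.736 over all kept cells and 0.859 in thinned cells. The interval of a level treats each UMI as a separate draw. It does not cover which cells were sampled, so no contrast between share and level is read from the 2 intervals.

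**Figure D3:**
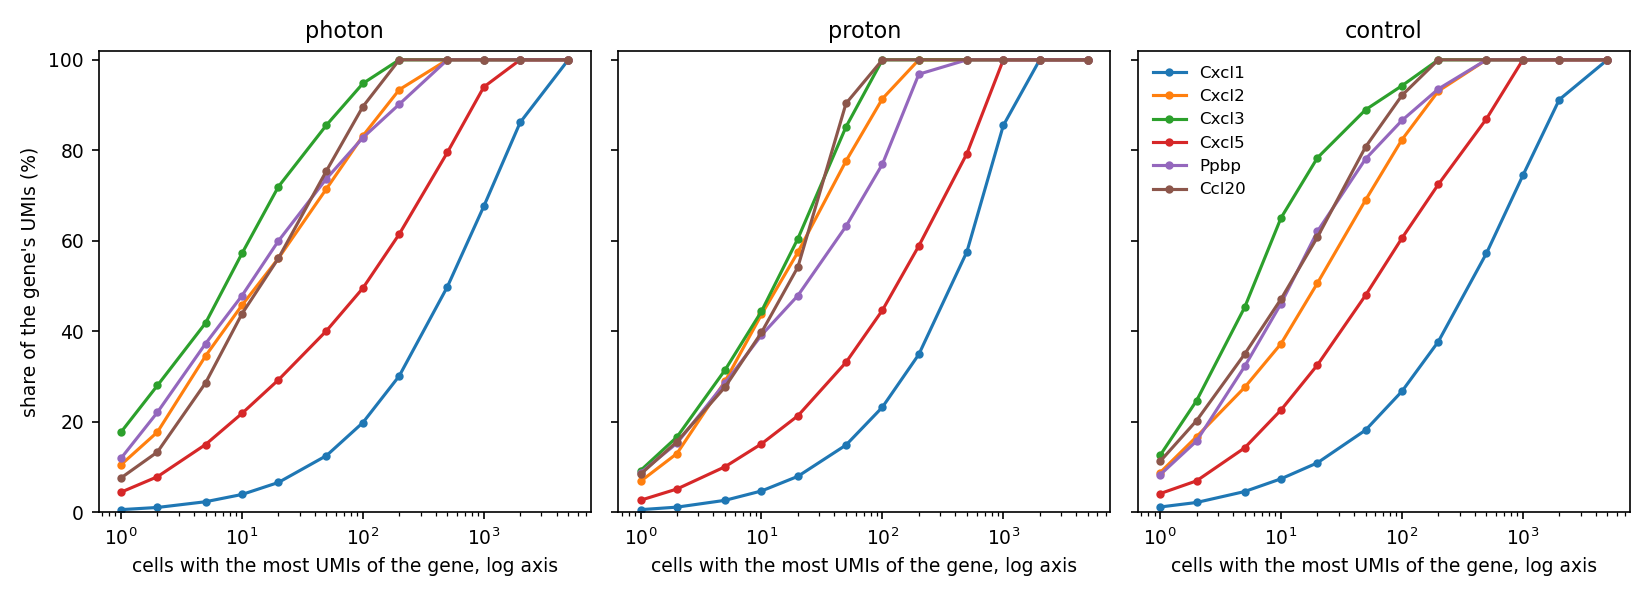
Share of each gene's UMIs held by the cells richest in it (vertical axis, percent) against the number of such cells (log axis) in photon, proton and control. Cxcl3, Ppbp, Cxcl2 and Ccl20 reach 37.3% to 65.1% within 10 control cells, while Cxcl1 stands at 7.43% there.

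The members' UMIs were unevenly spread over kinds of cells. Clustering all kept cells without the 6 genes gave 12 clusters, and cluster 7, called squamous-like because all 9 squamous markers with enough counts were at least 1.5-fold higher in it, carried the highest summed level of the members in each library, although Cxcl1 alone was higher in cluster 3 in proton. It was led by Psca and the cornified envelope genes Sprr2f and Sprr2d, with the mucosal keratin Krt13, and Cxcl3 and Ppbp were themselves among its 6 leading genes. Also higher in it were 4 of 9 luminal duct, 3 of 10 basal duct, 1 of 2 ionocyte and 1 of 1 macrophage markers with enough counts. Both neutrophil markers with enough counts were higher too, with a median log2 difference of 3.68 for those 2 against 2.02 for the squamous markers. Of the 8 listed neutrophil markers, Mpo, Elane, Retnlg, Csf3r and Ly6g stayed at or under 0.128 CPM in each whole library. S100a8, S100a9 and Camp reached higher levels, given below. These are levels of whole libraries and not of cluster 7. Cluster 7 made up 7.59% of photon, 3.93% of proton and 8.06% of control cells. It held 37.0% of the 6 genes' UMIs in photon, 25.2% in proton and 57.0% in control. By gene, cluster 7 held 91.8% of control Cxcl3, 87.4% of control Ppbp, 75.3% of control Ccl20, 71.7% of control Cxcl2 and 62.1% of control Cxcl5, but 26.2% of control Cxcl1. These shares were lower in the irradiated libraries. In photon they were 79.4% for Cxcl3, 75.4% for Ppbp, 53.4% for Ccl20, 56.65% for Cxcl2, 41.0% for Cxcl5 and 14.7% for Cxcl1. In proton they were 53.1% for Cxcl3, 56.1% for Ppbp, 25.3% for Ccl20, 58.5% for Cxcl2, 25.5% for Cxcl5 and 6.1% for Cxcl1. Cxcl1 is thus the member spread most widely outside the squamous-like cells.

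Within cluster 7 all 6 members also had lower CPM in the irradiated libraries, over all its kept cells. Shares of carriers there are over its thinned cells only, so no contrast between share and level is read. Ppbp measured 345 CPM in photon, 157 CPM in proton and 502 CPM in control cells of the cluster. Its carriers made up 8.88% of thinned cells in photon (7.17% to 10.9%), 10.3% in proton (7.54% to 13.7%) and 10.6% in control (8.77% to 12.6%). The UMIs per carrier were 5.19 in photon, 3.19 in proton and 5.80 in control. Cxcl3 there was 127 CPM in photon, 47.9 CPM in proton and 329 CPM in control, with carriers at 4.55% of photon, 4.18% of proton and 6.31% of control cells. For Ccl20 the cluster 7 ratios to control were 0.346 (0.294 to 0.407) in photon and 0.0817 (0.0503 to 0.126) in proton, where 21 UMIs were counted. Cxcl1 in cluster 7 had ratios of 0.693 (0.641 to 0.748) in photon and 0.160 (0.131 to 0.195) in proton. Cxcl5 was closest to control, with 358.5 CPM in photon, 331 CPM in proton and 430 CPM in control, and the most carriers in proton at 22.6%.

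Pooled over all cells outside cluster 7, the summed level had a ratio of 1.04 in photon over control and 0.520 in proton over control. This alternative was chosen after the data were seen, and the pool mixes clusters whose shares differ between libraries. By cluster, the photon ratio was 0.766 in cluster 2, 0.774 in cluster 3, 0.654 in cluster 4 and 0.483 in cluster 6. These intervals lay below 1. It was 0.934 in cluster 5, where the interval held 1, and 1.16 (1.09 to 1.23) in cluster 0. In the pool outside cluster 7, Ccl20 and Cxcl3 lay below control in photon, at 0.640 and 0.776. Cxcl1 kept 0.338 in proton over control without cluster 7, and it was lower in proton than in control in all 7 clusters where both libraries had 100 or more cells and together 20 or more Cxcl1 UMIs, with ratios from 0.0942 to 0.492. Cxcl5 pooled without cluster 7 was higher in both irradiated libraries, at 1.37 in photon and 1.44 in proton over control. By cluster its direction differed. It was lower in cluster 2 (0.503 in photon, 0.693 in proton) and in cluster 5 (0.576 and 0.577), and in proton also in cluster 6 (0.537). It was higher in cluster 3 (1.17 and 1.30), and in photon also in cluster 0 (1.29). Cluster 3 made up 16.45% of photon, 14.0% of proton and 3.99% of control cells. The mixture of the 7 clusters that held at least 100 cells in each library was also made equal. The summed ratios were then 0.754 in photon and 0.394 in proton over control. The clusters left out include cluster 1, led by Anks1b and Ror1, with 54.6% of proton and 6.53% of photon cells. In proton the equal mixture also gives weight to cluster 0, with 306 cells and 52 member UMIs, and to cluster 4, with 100 cells and 3 member UMIs.

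Cxcl2 had a further source in cluster 6, which was led by Acta2, Pcsk5 and Klhl29 and stays unnamed. There it measured 50.6 CPM in photon, 8.07 CPM in proton and 225 CPM in control, and its carriers made up 3.83%, 0.887% and 12.0% of photon, proton and control cells. The control value rests on 294 cells and 182 UMIs. Cxcl1 and Cxcl5 had a further source in cluster 3, led by Klk1b11 and Crisp3, where 7 of 9 luminal duct markers were higher and Cxcl1 reached 241 CPM in photon, 77.1 CPM in proton and 308 CPM in control. Cluster 8, led by Rsad2, Cxcl10 and other interferon-linked genes, held 178 photon, 136 proton and 0 control cells, and the members summed to 225 CPM in its photon cells and 97.5 CPM in its proton cells, below the level of the whole library in each.

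**Figure D4:**
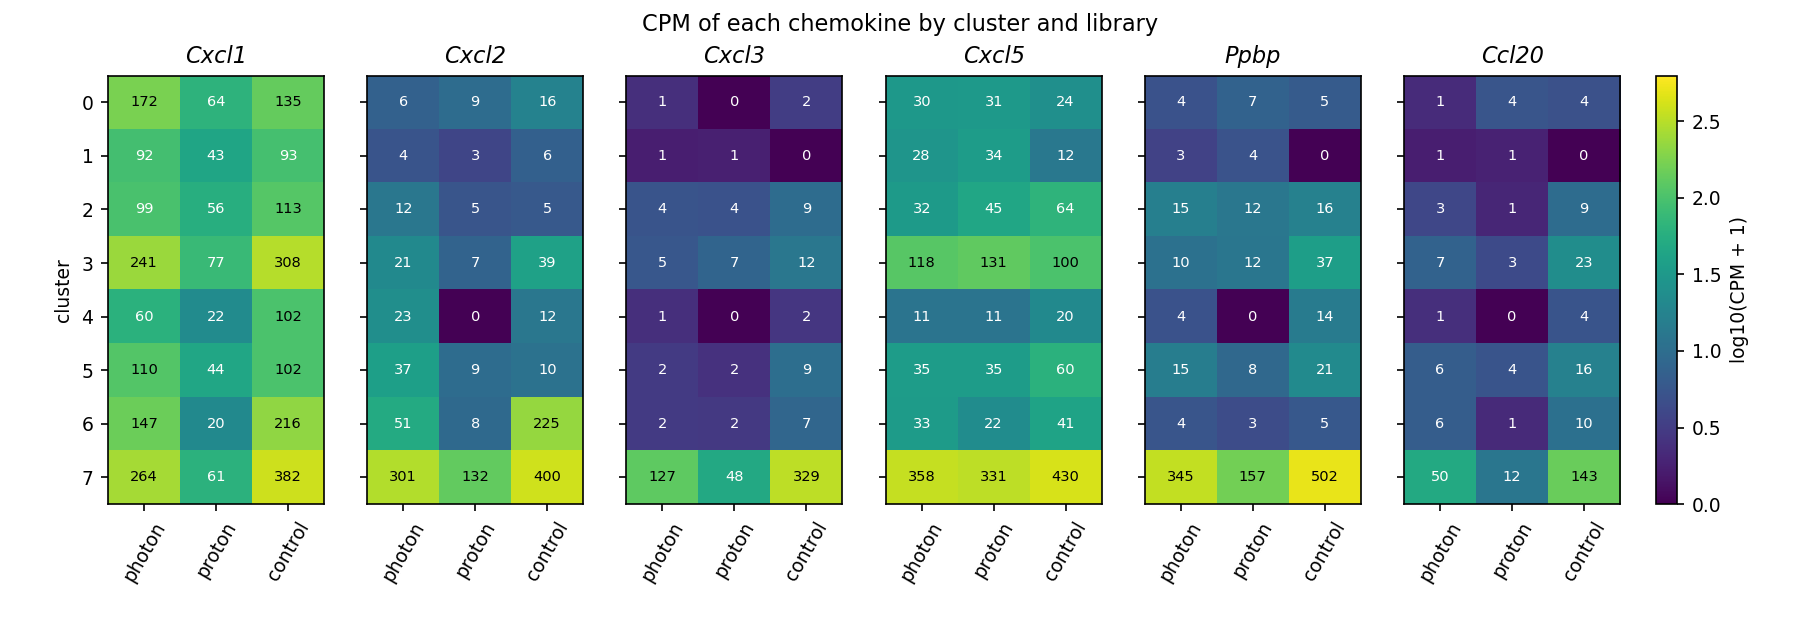
CPM of each chemokine in clusters 0 to 7 (rows) of the photon, proton and control libraries (columns), with the rounded CPM printed and colour on a log10(CPM + 1) scale. Row 7 is highest for Cxcl2, Cxcl3, Cxcl5, Ppbp and Ccl20 in each library, and Cxcl2 in row 6 is 225 in control against 51 in photon and 8 in proton.

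Krt13, a keratin of non-cornifying mucosal epithelium, was at 92.7 CPM in photon, 53.6 CPM in proton and 80.3 CPM in control. Thinned cells with a Krt13 UMI carried any member in 30.9% of cases in photon, 22.5% in proton and 37.8% in control, against 22.1%, 14.4% and 22.3% of cells without one. The enrichment differed by gene, and in control it was 8.37 times (5.34 to 12.8) for Cxcl3, 7.23 times (5.25 to 9.85) for Ppbp, 4.44 times (2.58 to 7.28) for Ccl20, 3.44 times (2.37 to 4.87) for Cxcl2 and 2.5 times (1.90 to 3.25) for Cxcl5. For Cxcl1 it was 1.21 times, with an interval from 0.972 to 1.48. For Ppbp it was 5.19 times (3.79 to 7.03) in photon and 5.63 times (3.62 to 8.55) in proton. For Cxcl3 it was 7.02 times (4.39 to 11) in photon and 3.04 times (1.15 to 6.90) in proton, and for Ccl20 3.85 times (2.10 to 6.68) in photon and 2.87 times in proton, where the interval from 0.723 to 8.41 held 1. Among cells with at least 10 Ppbp UMIs, 24 of 30 in photon, 4 of 7 in proton and 32 of 44 in control also held a Krt13 UMI, against 8.64% of all photon, 5.84% of all proton and 6.23% of all control cells. These cells were deep, with medians of 5568 UMIs in photon, 3903 in proton and 7230 in control, and the part of depth was not tested.

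Nfkbiz, which encodes the NF-kB cofactor IkB-zeta, was at 67.5 CPM in photon, 70.8 CPM in proton and 81.1 CPM in control, ratios to control of 0.833 and 0.873, the second of which lay nearer 1 than that of any member in proton. Thinned cells with an Nfkbiz UMI carried any member in 31.5% of cases in photon, 19.7% in proton and 31.3% in control, against 21.6%, 14.3% and 21.9% of other cells. For Cxcl1 the share was 1.61 times (1.42 to 1.82) as high in photon, 1.45 times (1.15 to 1.80) in proton and 1.60 times (1.41 to 1.82) in control, and for Cxcl2 it was 2.02 times (1.43 to 2.8) in photon, 1.63 times (0.794 to 3.07) in proton and 1.88 times (1.35 to 2.56) in control. For Cxcl3, Ppbp and Ccl20 the interval held 1 in each library. Krt14, Isg15 and Mki67 were set beside these, and cells with a UMI of the basal keratin Krt14 carried any member 0.778 times (0.708 to 0.857) as often as others in photon, 0.784 times (0.698 to 0.882) in proton and 0.737 times (0.668 to 0.813) in control. For the interferon-induced Isg15 the value was 0.875 (0.794 to 0.966) in photon, and the intervals held 1 in proton (0.814 to 1.03) and in control (0.793 to 1.10). For the cycling gene Mki67 it was 0.622 (0.459 to 0.826) in proton, and the intervals held 1 in photon (0.743 to 1.08) and in control (0.573 to 1.42).

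The members were also found together. Cells with both Cxcl3 and Ppbp were 14.3 times (9.37 to 21) as frequent as the product of the single shares in photon, 13 times (5.95 to 24.7) in proton and 14.8 times (10.2 to 20.6) in control. Cxcl2 and Cxcl3 met 10.2 times (6.14 to 15.9) as often in photon, 17.9 times (7.20 to 36.9) in proton and 13.3 times (9.28 to 18.3) in control. Cxcl1 and Ppbp met less often, at 1.66 times (1.27 to 2.15) in photon, 1.38 times (0.734 to 2.36) in proton and 1.64 times (1.25 to 2.12) in control. In proton no thinned cell held Ccl20 together with Cxcl2 or with Cxcl3, where the product of shares gave 0.235 and 0.153 cells. The product of shares takes no account of clusters, so these values describe where the transcripts lay together.

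By correlation over kept cells within a library, averaged over the 3 libraries, each member was nearest to another member, with the highest r = 0.29 for Cxcl3 with Ppbp and r = 0.20 for Cxcl1 with Cxcl2. Among 10157 genes with the 6 members left out, the one most like Cxcl1 was Nfkbia, the NF-kB inhibitor that NF-kB itself induces, with r = 0.19. Tnip3, Lcn2, Zc3h12a and Ier3 came next. For Cxcl2, Cxcl3, Ppbp and Ccl20 the first was Aldh1a3, a retinaldehyde dehydrogenase, with r = 0.16, 0.20, 0.22 and 0.10, followed among others by the keratins Krt6a and Krt23 and the protease gene Tmprss11g. For Cxcl5 it was Ltf, which encodes lactoferrin, with r = 0.19, then Anxa1, Arg1, Aldh1a3 and Ecm1. These correlations are weak, as sparse counts make them, and share depth and cell type, so they are given as a ranking only.

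Receptors for the members were near or at 0. Cxcr1, Ccr6 and the decoy receptor Ackr1 had 0 UMIs in every library, which allows up to 0.0639 CPM in photon, 0.0818 CPM in proton and 0.0759 CPM in control. Cxcr2 was at 0.0639 CPM in photon, 0.164 CPM in proton and 0.253 CPM in control. Of the 8 neutrophil markers, S100a8 and S100a9 reached 5.62 and 7.95 CPM in control, Camp reached 1.01 CPM there, and the 8 summed to 9.63 CPM in photon, 7.22 CPM in proton and 14.7 CPM in control.

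Other chemokines differed from control in both directions. On chromosome 5, Cxcl10, an interferon-induced chemokine for T cells, was at 85.7 CPM in photon, 27.3 CPM in proton and 1.82 CPM in control, ratios of 47.0 and 15.0. Ccl5, which also draws T cells, was at 152 CPM in photon, 207 CPM in proton and 0.936 CPM in control. Of the 5 other chemokines elsewhere in the genome with a mean CPM of at least 5, photon and proton each had 1 higher and 1 lower than control, the lower one being the thymic and mucosal chemokine Ccl25 at 24.7 CPM in photon, 25 CPM in proton and 38.2 CPM in control. The mucosal chemokine Cxcl17 was within 1.5-fold in both, at 229 CPM in photon, 212 CPM in proton and 246 CPM in control.

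**Figure D5:**
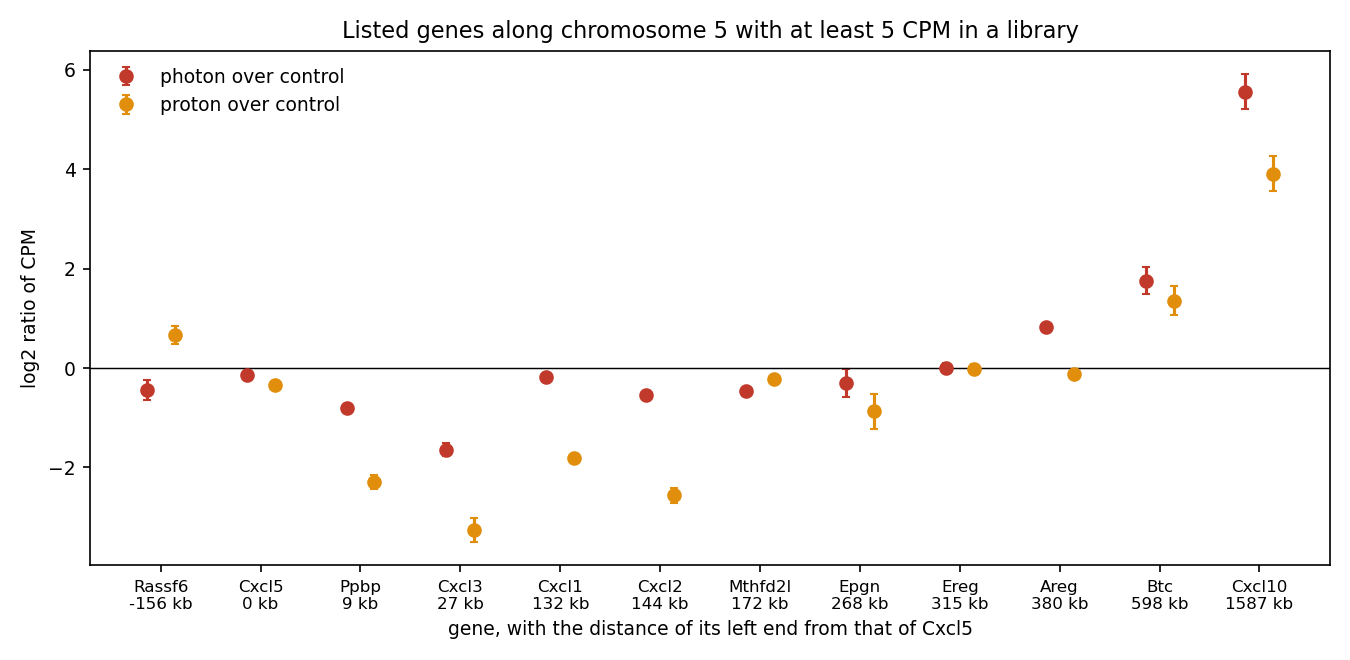
Log2 ratio of CPM over control (vertical axis) for listed genes along chromosome 5 that reached 5 CPM in a library, ordered by the distance of their left end from that of Cxcl5, with photon and proton side by side. Bars are exact 95% counting intervals. The 5 chemokines from Cxcl5 to Cxcl2 lie below 0, and Btc and Cxcl10 lie above 0 in both libraries.

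Genes of the pathways that drive these chemokines were described from lists, and their part in the chemokine levels was not tested. By the same size rule 9.45% of all tested genes were lower and 7.37% higher in photon over control. In proton over control 14.9% were lower and 14.2% higher. Nothing is read from the counts of these lists, or of the other chemokines above, against those shares. Among 11 NF-kB subunits and kinases, 0 were 1.5-fold higher or lower in photon, and 2 were higher (Ikbke and Map3k14) and 1 lower (Ikbkg at 0.654 times control) in proton, where Ikbkg encodes the regulatory subunit of the IkB kinase. Among 11 tested inhibitors and feedback genes, 1 was lower in photon (Tnfaip3), while in proton 2 were higher (Tnip3 and N4bp1) and 3 lower (Nfkbia, Tnfaip3 and Tnip2). Nfkbia, whose mRNA follows NF-kB activity, was at 312 CPM in photon, 164 CPM in proton and 344 CPM in control. It was the gene outside the 6 most like Cxcl1 by correlation. Of 11 other NF-kB targets tested, 0 were higher and 2 lower in photon, and 2 were higher (Csf1 and Traf2) and 3 lower in proton, among the lower in both Csf3, the growth factor for neutrophils, at 10.3 CPM in photon, 9.16 CPM in proton and 18.4 CPM in control.

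Il1a, an alarm cytokine of keratinocytes, was at 4.47 CPM in photon, 1.94 CPM in proton and 17.2 CPM in control, ratios of 0.260 and 0.112. Il1a was itself among the leading genes of cluster 7, at 67.4 CPM there against 2.32 CPM in the other cells. Whether it acted on the chemokine levels was not tested. Il1rn, which encodes the antagonist of the IL-1 receptor, was at 15.5 CPM in photon, 18.0 CPM in proton and 5.92 CPM in control, ratios of 2.62 and 3.05. In the list of 14 tested IL-1 and IL-36 family genes, 1 was higher and 3 lower in photon, and 2 higher and 2 lower in proton. Tlr4, the receptor for bacterial lipopolysaccharide, was at 32.9 CPM in photon, 45.1 CPM in proton and 61.8 CPM in control, and Tlr3, which senses double-stranded RNA, at 39.3 CPM in photon, 44.7 CPM in proton and 19.7 CPM in control. Of the IL-17 and TNF receptors and adaptors, 0 of 9 tested in photon and 0 of 10 in proton passed 1.5-fold in either direction.

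Of 12 AP-1 and CEBP factors, 1 was higher (Fos) and 1 lower (Fosl2) in photon, while in proton 1 was higher (Cebpa) and 7 lower. The shares over all tested genes were 7.37% higher and 9.45% lower in photon, and 14.2% higher and 14.9% lower in proton. Jun had 692 CPM in photon, 176 CPM in proton and 931 CPM in control, and Cebpb, a factor at inflammatory promoters, 163 CPM in photon, 95.5 CPM in proton and 243 CPM in control. Of 8 factors that bind AU-rich elements, 0 passed 1.5-fold in photon and 2 were lower in proton, Zfp36 at 6.76 CPM in proton against 14.7 CPM in control and Hnrnpd at 107 CPM in proton against 242 CPM in control. Dexamethasone was in all cultures, and of 7 tested genes of the glucocorticoid receptor list 4 were lower in photon and 5 in proton, among them in both Tsc22d3 and Fkbp5. Relative to genes of like length the members' ratios in proton over control were 0.325 for Cxcl1, 0.193 for Cxcl2, 0.118 for Cxcl3, 0.894 for Cxcl5, 0.232 for Ppbp and 0.116 for Ccl20. In photon over control they were 0.803 for Cxcl1, 0.622 for Cxcl2, 0.292 for Cxcl3, 0.824 for Cxcl5, 0.520 for Ppbp and 0.318 for Ccl20.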

How the data were processed

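The authors deposited, per library, a matrix of unnormalised counts of UMIs per gene and cell barcode. The submitters' processing notes name Cell Ranger 7.0.1 and mm10, while the file headers give 7.0.0. The sources used here do not give the annotation release or the treatment of intron reads. Barcodes with at least 500 genes and at most 20% mt- UMIs were kept, which left out 885 photon, 569 proton and 1047 control barcodes. No doublet caller was run and no doublets were removed. Counts were summed over kept cells and scaled to CPM. Ratios carry exact 95% conditional binomial intervals and shares exact Clopper-Pearson intervals, for counting error only. UMIs of 1 library are not replicates, and with 1 library per group no test was made. A count of 0 was given a limit of 3 counts. Shares were compared after thinning cells to 2000 UMIs, which left out 4150 photon, 6017 proton and 3599 control cells. Cells were clustered with scanpy 1.11.5 and leidenalg 0.10.2 (2000 variable genes, 30 components, 20 neighbours, resolution 0.5), without the 6 members, the listed pathway genes and mt-, Rpl and Rps genes. The cell type markers stayed in.

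The members and lists were chosen with earlier results of these data known. Genes named by rule are the members, list genes at least 1.5-fold from control in a comparison, the receptors, the other chemokines of the same region, Nfkbiz, Krt13, the 5 genes most like each member, and cluster leaders. Cxcl17 and the neutrophil and platelet markers were named after their values were seen. Coordinates are from GENCODE mouse release 21 (GRCm38) and promoters from RefSeq GRCm38.p6, and 32158 of the 32285 gene IDs matched GENCODE. The call rule, intervals and ranking were tested on simulated data. Alternatives were all barcodes, other scalings, other cell filters, equal cluster mixture, thinning, other CPM minimums and clustering resolution 1. Relative gene length and leaving out cluster 7 were added after the data were seen.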

Additional observations from a re-analysis of the deposited data

Results flagged for a closer look

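Ratios between libraries had counting intervals on opposite sides of 1 in different clusters for 3 members, and the difference between clusters was not tested because each library is 1 sample. Cxcl1 in photon over control was 1.28 in cluster 0 (led by Aox3 and Orm3) and 0.588 in cluster 4. Cxcl2 in photon over control was 3.56 in cluster 5, the cycling-like cells, where control had 9 UMIs, and 0.225 in cluster 6. Cxcl5 in photon over control was 1.29 in cluster 0 and 0.503 in cluster 2. Cxcl5 in proton over control was 1.30 in cluster 3 and 0.537 in cluster 6, and in proton over photon 1.38 in cluster 2 and 0.655 in cluster 6. Among the barcodes left out for few genes or high mitochondrial share, Ppbp was at 39.9 CPM in photon (23 UMIs) against 15.3 CPM in control (10 UMIs), a ratio of 2.60 (1.19 to 6.12), the reverse of its direction in kept cells.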

How the results depend on the processing

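No paired analysis was possible because each group is 1 library. All ratios to control and between irradiated libraries below are of the 6 members summed unless a gene is named. In proton over control the sum, Cxcl1, Cxcl2, Cxcl3, Ppbp and Ccl20 stayed below 1 in the alternatives run, Cxcl5 did not, and of 162 values for single members 11 changed direction.

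Photon over control (0.736) became 0.884 without the 5% deepest cells, 0.890 without the 1% of cells richest in members, 0.859 when thinned, 0.790 scaled by the median of gene ratios, 0.754 with equal cluster mixture and 1.04, reversed, without cluster 7. Proton over control (0.321) became 0.402 without the deepest cells, 0.416 without the richest, 0.420 when thinned, 0.394 with equal mixture and 0.520 without cluster 7. Proton over photon (0.437) became 0.454 without the deepest cells, 0.467 without the richest, 0.489 when thinned, 0.415 scaled by the median, 0.522 with equal mixture and 0.499 without cluster 7. Cxcl5 reversed most often: photon over control was 1.11 without the deepest cells, 1.08 without the richest, 1.11 thinned and 1.37 without cluster 7, proton over control 1.08 thinned and 1.44 without cluster 7, and proton over photon 1.05 without cluster 7, 1.01 with equal mixture and 1.11 relative to genes of like length. Without cluster 7 Cxcl2 (1.02) and Ppbp (1.08) in photon over control also reversed. The cause was not tested.

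Genes called higher and lower moved with the CPM minimum, since fewer or more genes were tested: at 25 CPM 333 and 474 in photon over control, 633 and 874 in proton over control and 1318 higher in proton over photon, and with no minimum 3927 and 5797, 5647 and 5698, and 6782 and 4767. Median scaling moved the all-gene median log2 ratio of photon over control to -0.02 from -0.12, the lower calls to 585 from 954, and the share of calls that were higher to 61.1% from 43.8%, with 3 members still lower. The share of cells with any member had a ratio of 0.578 in proton over control at 1000 UMIs, and 0.592 unthinned and 0.597 at 1000 UMIs in proton over photon. The Krt13 link with any member was 1.73 in photon and 2.28 in control at 1000 UMIs and 1.98 in proton unthinned, and the Nfkbiz link 1.73 unthinned and 1.67 at 1000 UMIs in proton and 1.66 unthinned in control. At clustering resolution 1 the 1 cluster at 3 times the level of all cells or more held 29.3% of member UMIs in photon, 22.6% in proton and 47.7% in control. That cluster held 2.16% of photon, 2.86% of proton and 1.60% of control cells, a larger share in proton than in control, the reverse of cluster 7. Ccl20 in proton rests on 83 UMIs.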
